A study of Danio rerio with 8 samples.

Results

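The genes described here are the Notch receptors notch2 and NOTCH1 in macrophage reporter cells of the injured zebrafish heart, with the other genes whose symbols begin with NOTCH, JAG, DLL or RBPJ. The symbol table holds 17 identifiers of this kind, and 7 of them were among the 10479 genes with values. They were the receptors notch2, NOTCH1 and NOTCH3, the ligands jag1b and dll4, and 2 identifiers of RBPJ. All 7 passed the filter on low values, along with 10120 other genes. notch2 and NOTCH1 were singled out because they differed in opposite directions between the populations compared, so their difference is described here with no test, and that of the other 5 likewise.

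RNA was sequenced from hearts of adult Danio rerio aged 6 to 9 months that carried the reporters wt1b:eGFP and mpeg1:mCherry, taken 4 days after cryoinjury, in which part of the ventricle is frozen. Cells sorted by fluorescence gave 4 libraries of mpeg1:mCherry single positive cells and 4 of mpeg1:mCherry/wt1b:eGFP double positive cells. Each library was a pool of 5 to 7 hearts, and library batches 1 (replicates 1 and 2) and 2 (replicates 4 and 5) each held 2 libraries of either population. mpeg1 is a macrophage gene and wt1b encodes a zinc finger transcription factor of the epicardium, so a population is defined by reporter fluorescence and may hold any cell that carried it. The wt1b transcript ran from 0.122 to 0.469 normalized counts in single and from 13.6 to 63.1 in double positive libraries.

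Notch receptors are cut from the membrane when a Delta or Jagged ligand on a neighbouring cell binds them. The freed intracellular part enters the nucleus and joins RBPJ and Mastermind proteins to turn on genes of the HES, HEY and NRARP families, while without it RBPJ sits with corepressors such as SPEN. In mice, Notch2 acts in monocytes and marginal zone B cells and Notch1 in T cells and the endothelium. In the regenerating zebrafish heart, Notch activity is known from the endocardium.

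Deposited values are normalized counts on a linear scale. No correction for gene length is stated, so levels are compared between libraries and not between genes. Library totals ran from 803220 to 1021901, and read depth is unknown. Double positive library 1 stood apart, with 42.3% of genes under 1 normalized count against 10.7% to 19.7% in the other libraries. Values under 1 may not stand for reads. Where 4 values are listed for a population, they belong to replicates 1, 2, 4 and 5 in that order, of which the first pair is batch 1. In sorted pools, fewer cells of a type and less RNA per cell cannot be told apart.

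notch2 (ENSDARG00000043130) was more abundant in double positive cells. It had 470.2, 275, 414 and 515 normalized counts in the single positive pools. In the double positive pools it had 936, 940.5, 1263 and 1022. No double positive value fell within the single positive range, and the gap between the groups, from 515 to 936, was wider than the range within either. The means were 419 ± 104 and 1040.4 ± 154 (SD, n = 4 each), a ratio of 2.49. On the log2(normalized count + 1) scale the difference of double minus single positive cells was 1.34 (SE 0.22), with 1.38 in batch 1 and 1.297 in batch 2. notch2 was also the steadiest of the receptors, with an SD of 24.9% of the mean in single and 14.8% in double positive libraries.

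NOTCH1 (ENSDARG00000052094) went the other way. The symbol follows the human gene, and the files do not say which zebrafish NOTCH1 paralog it is. Its values were 152, 271, 117 and 172 normalized counts in the single positive pools, and 70.4, 28.3, 85.1 and 26.2 in the double positive pools. The groups did not overlap, but the gap between 85.1 and 117 was narrow beside the spread within each. Means were 178 ± 66.1 and 52.5 ± 29.8 (SD, n = 4 each), so the level in single positive cells was 3.39 times that in double positive cells. The log2 difference was -1.86 (SE 0.46), and -2.16 and -1.56 in batches 1 and 2. The double positive libraries fell into 2 that were higher, 1 and 4, and 2 that were lower, 2 and 5, and each batch held 1 of either kind.

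**Figure D1:**
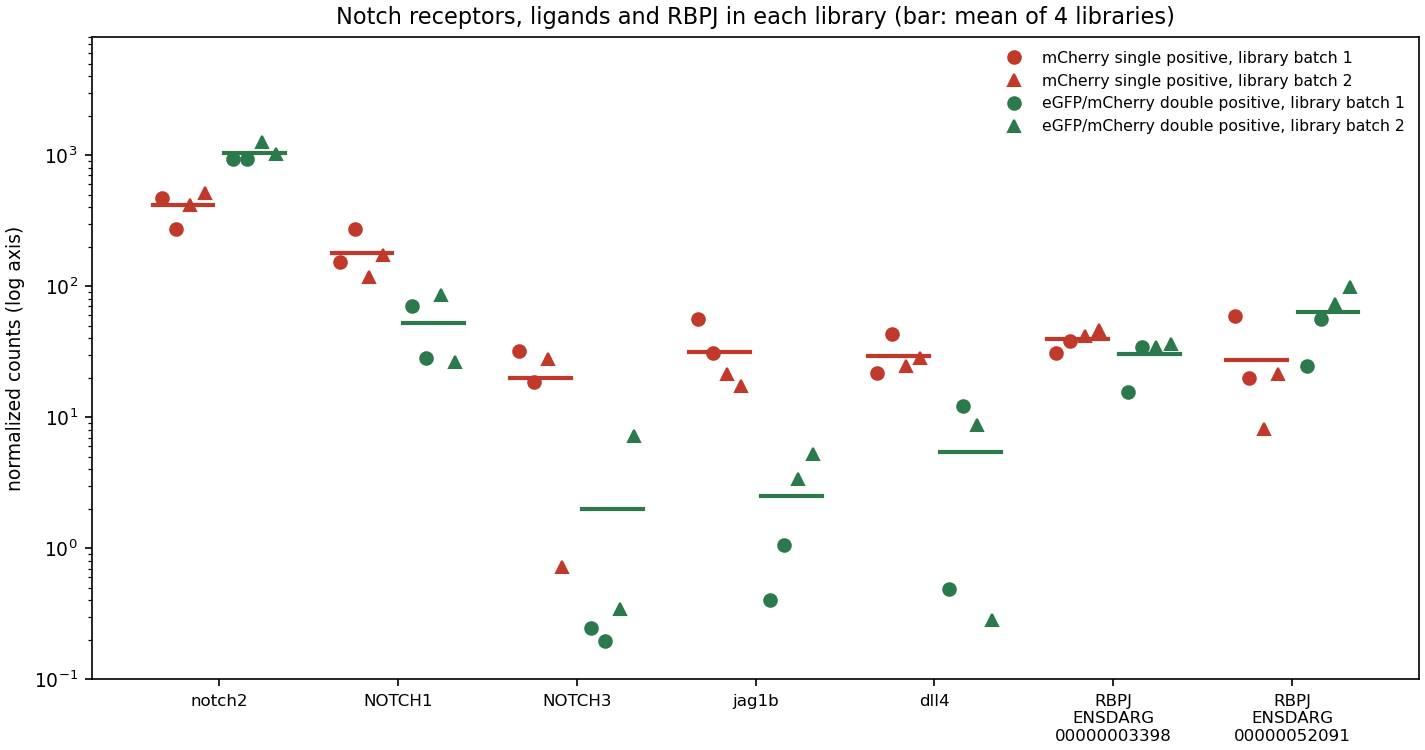
Normalized counts (log axis) of the 7 genes in each library, with single positive libraries in red, double positive libraries in green, circles for library batch 1, triangles for batch 2 and a bar at the mean of 4 libraries. notch2 is higher in every double positive library and NOTCH1, jag1b and dll4 lower, while NOTCH3 and both RBPJ identifiers overlap.

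If each library was scaled by a constant factor, the ratio of notch2 to NOTCH1 within it does not depend on that factor. How values were normalized is not stated, so this is not certain. The ratio was 3.09, 1.02, 3.54 and 2.998 in the single positive pools, and 13.3, 33.3, 14.9 and 39.05 in the double positive pools. The lowest double positive ratio was above the highest single positive one. This had to be so, since neither receptor overlapped between the populations and they differed in opposite directions. It is no further result. As log2 ratios the means were 1.26 ± 0.84 in single and 4.49 ± 0.79 in double positive cells (SD, n = 4 each), 3.23 apart, with 3.57 in batch 1 and 2.89 in batch 2. Single positive library 2 had both the lowest notch2 and the highest NOTCH1 of its group. Because genes differ in length and no correction for it is stated, the ratio is read between libraries. It does not say which receptor had more transcripts.

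**Figure D2:**
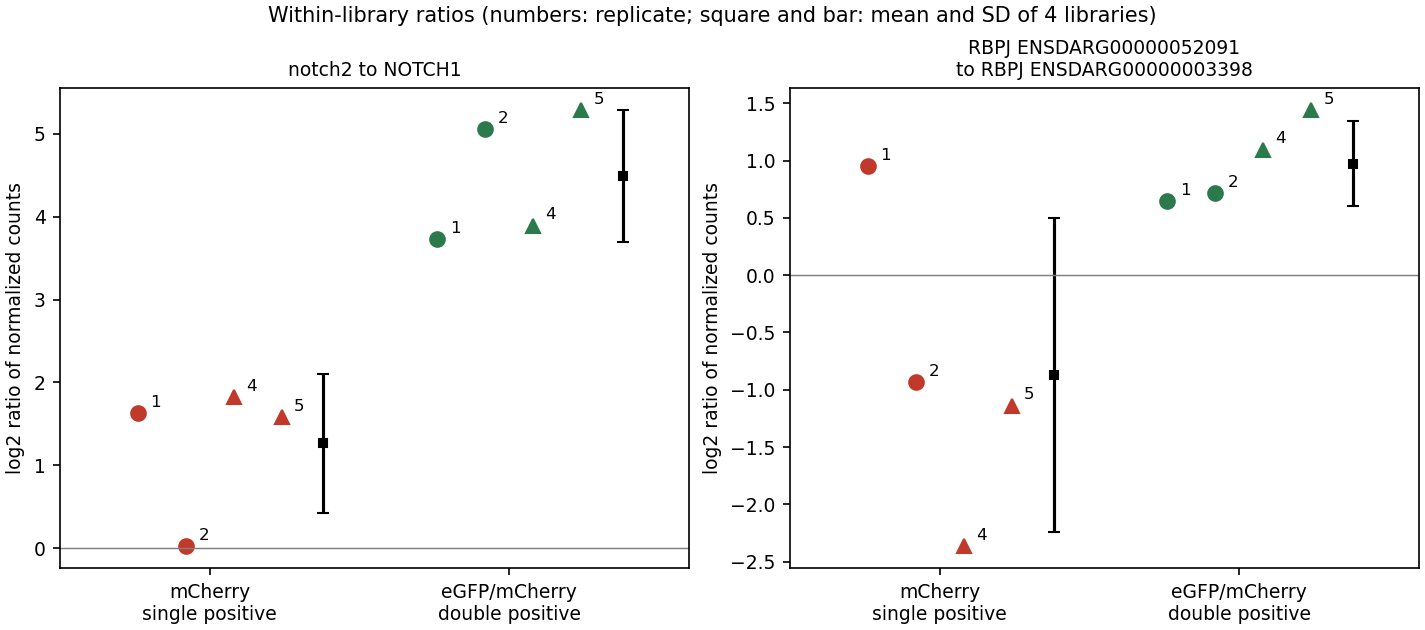
Log2 ratio of normalized counts within each library for notch2 to NOTCH1 (left) and for the RBPJ identifiers (right), with replicate numbers, circles for library batch 1, triangles for batch 2, and a square with a bar for the mean and SD of 4 libraries. The notch2 to NOTCH1 ratio separates the populations (0.022 to 1.82 against 3.73 to 5.29), as the separate ranges of both receptors require. The RBPJ ratio overlaps through single positive library 1 (0.95).

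NOTCH3 (ENSDARG00000052139), a receptor known from mural cells of vessels, was lower on average in double positive cells. It had 32.1, 18.6, 27.6 and 0.719 normalized counts in the single positive pools and 0.245, 0.196, 0.343 and 7.24 in the double positive pools. Single positive library 5 and double positive library 5 each lay among the values of the other population, so the groups overlapped. The log2 difference of -2.73 (SE 1.27) was -4.38 in batch 1 and -1.08 in batch 2. No receptor other than notch2 was thus higher on average in double positive cells, among the 3 with values.

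Both ligands with a JAG or DLL name were lower in double positive cells. jag1b (ENSDARG00000013168), of the Jagged type, had 56.05, 30.7, 21.2 and 17.2 normalized counts in the single positive pools, and 0.4, 1.05, 3.39 and 5.24 in the double positive pools. The groups did not overlap, but they lay closer in batch 2. The log2 difference was -3.296 (SE 1.11), with -4.65 in batch 1 and -1.94 in batch 2.

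dll4 (ENSDARG00000070425), a Delta type ligand of the vascular endothelium, had 21.6, 43.2, 24.7 and 28.4 normalized counts in the single positive pools. In the double positive pools it had 0.485, 12.1, 8.8 and 0.283. The groups did not overlap, and the double positive libraries split into 2 with values under 1 and 2 with values near 10. The log2 difference was -2.897 (SE 1.14), and alike in the batches, at -2.84 and -2.95. Of the 7 genes, 4 did not overlap between the populations (notch2 above, and NOTCH1, jag1b and dll4 below, the single positive range), as did 14.1% of all tested genes. Nothing is read from that share.

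RBPJ, the DNA-binding partner of the cleaved receptors, had 2 identifiers that did not move together. RBPJ ENSDARG00000003398 had 30.7, 38.3, 41.6 and 46.6 normalized counts in the single positive pools and 15.6, 34.5, 34.5 and 36.04 in the double positive pools. The populations overlapped, and double positive library 1, which had many values under 1, was the lowest of the 8. The log2 difference was -0.43 (SE 0.57).

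RBPJ ENSDARG00000052091 had 59.4, 20.1, 8.08 and 21.2 normalized counts in the single positive pools, and 24.5, 56.6, 73.7 and 97.8 in the double positive pools. Single positive library 1 overlapped the double positive range, and the other 3 single positive libraries lay below it. The log2 difference of 1.35 (SE 0.68) was 0.103 in batch 1 and 2.597 in batch 2, so it rested on batch 2. Within a library, the log2 ratio of this identifier to the other was -0.87 ± 1.37 in single and 0.97 ± 0.37 in double positive cells (SD, n = 4 each). How reads that fit both copies were assigned is not stated, so this ratio is uncertain.

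Of the 7 genes, 1 (notch2) was past the threshold of the fit across all genes as higher and 1 (NOTCH1) as lower. In that fit, 3.88% of 10127 tested genes were higher and 2.81% lower, 6.69% in all (limma, adjusted p under 0.05). Since the receptors were chosen on this contrast, nothing is read from that count. The other 5 were not past it. The split over all genes was 393 higher and 285 lower, or 542 and 220 with median centring.

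Other genes of the Notch pathway, listed from general knowledge by role, did not pass the test among those reported here. Of 95 entries, 34 were found, at 41 identifiers that were all tested, of which 0 were called higher and 0 lower (limma, adjusted p under 0.05), and 2 above and 5 below 0 had an unadjusted p under 0.05. Over all 10127 tested genes, 916 above and 1016 below 0 had such an unadjusted p. Nothing is read from counts at that p, here or by role. The median log2 difference of the 41 identifiers was -0.221, against -0.159 for all tested genes. Their differences ran from -2.71 to 2.25.

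Corepressors had values at 9 identifiers, with 2 at an unadjusted p under 0.05 and below 0 (limma). Both belong to SPEN, an RBPJ corepressor, and are named after their values were seen. SPEN ENSDARG00000074245 had means of 83.6 ± 14.01 in single and 32.2 ± 20.97 normalized counts in double positive cells (SD, n = 4 each), with no overlap between the groups, and a log2 difference of -1.67 (SE 0.60, limma adjusted p = 0.122). SPEN ENSDARG00000074332 had a log2 difference of -1.18 (SE 0.47, limma adjusted p = 0.169). Among double positive libraries both were lowest in library 1 (6.97 and 25.0) and highest in library 2 (50.5 and 85.6). Double positive library 1 is the one with many values under 1. Without double positive library 2 both identifiers passed, close to the threshold (limma adjusted p = 0.0491 and 0.0488). Under the other 17 alternative settings 0 of the reported pathway genes were called lower. The corepressor gene NCOR1 averaged 151 ± 48.8 normalized counts in single and 132 ± 31.9 in double positive cells (SD, n = 4 each), and its log2 difference of -0.176 (SE 0.34) was 0.104 with median centring.

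Genes listed as targets of Notch had values at 5 identifiers, and 0 passed the test, with 2 at an unadjusted p under 0.05 and below 0 (limma). Whether they answer to Notch in these cells was not tested. HES4 (ENSDARG00000056438, list entry her9), a basic helix-loop-helix repressor, had the highest normalized counts of them, with no stated correction for length. It had 316, 354, 274 and 185 normalized counts in the single positive pools and 255, 108, 214 and 87.96 in the double positive pools. The ranges overlapped, and the log2 difference was -0.86 (SE 0.34, limma adjusted p = 0.174). The related repressor HES1 (ENSDARG00000006514, list entry her6) is named after its values were seen. It had 128, 138, 39.97 and 40.4 normalized counts in single positive pools and 44.3, 24.1, 32.7 and 18.01 in double positive pools. Its log2 difference was -1.35 (SE 0.52, limma adjusted p = 0.151). In both HES genes double positive libraries 1 and 4 lay above 2 and 5, as they did for NOTCH1. HEY1 had this order too, but neither NRARP identifier did. In double positive pools these had 54, 0.311, 8.46 and 14.7 (ENSDARG00000018958) and 0.26, 24.6, 9.4 and 16.6 (ENSDARG00000091419). The order was picked out after the values were seen, and nothing is read from it.

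HEY1 was low in both populations, at 3.299 ± 4.13 and 6.17 ± 5.63 normalized counts (SD, n = 4 each). The feedback inhibitor NRARP had log2 differences of -1.39 (SE 1.08) at ENSDARG00000018958 and -0.968 (SE 1.28) at ENSDARG00000091419. Beside SEs of this size neither difference could be told from 0 (limma adjusted p = 0.538 and 0.746).

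Genes of the other roles did not pass either. Of 9 identifiers for receptor cleavage, 2 ligands outside the JAG and DLL names, 2 glycosyltransferases, 9 ubiquitin or endocytosis genes and 5 coactivators, 0 were called higher or lower (limma). Among these, 2 above 0 (PSEN2 and itcha) and 1 below 0 (FURIN ENSDARG00000070971) had an unadjusted p under 0.05. They are named after their values were seen. The membrane protease gene adam10a, which makes the first ligand-induced cut, had 196 ± 26.2 in single and 228 ± 21.7 normalized counts in double positive cells (SD, n = 4 each, log2 difference 0.226, SE 0.26). The histone acetyltransferase gene EP300 had 135 ± 12.97 and 201 ± 33.9 (SD, n = 4 each), with no overlap between the groups and a limma adjusted p = 0.312. The Fringe gene mfng, which glycosylates Notch receptors, had 30.7 ± 11.5 and 50.4 ± 5.87 normalized counts (SD, n = 4 each, limma adjusted p = 0.489). DLK2, of the Delta-like noncanonical ligands, had 15.5 ± 18.9 in single and 12.4 ± 9.71 normalized counts in double positive cells (SD, n = 4 each), with a log2 difference of -0.0515 (SE 1.33) that was 0.229 with median centring. The ubiquitin ligase gene NEURL1 had a log2 difference of 0.203 (SE 0.53).

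**Figure D3:**
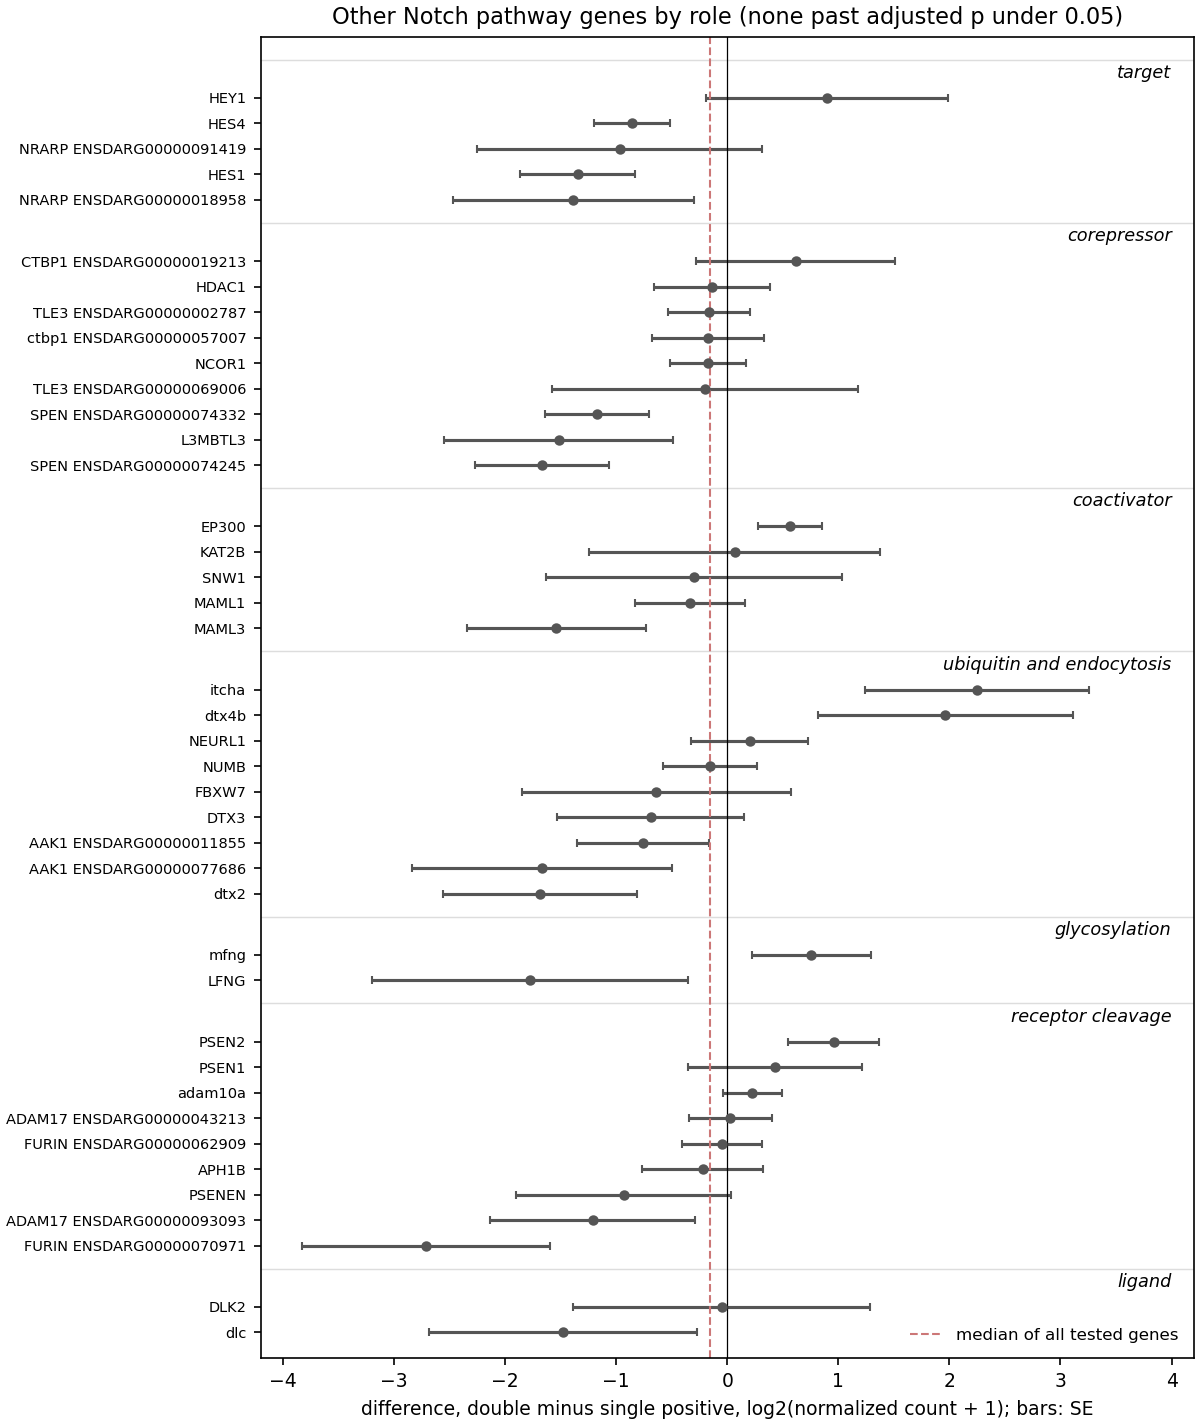
Log2 difference of double minus single positive cells for 41 Notch pathway identifiers outside the NOTCH, JAG, DLL and RBPJ names, by role, with bars for the SE and a dashed line at the median of all tested genes (-0.159). Of the 41 differences, 29 lie below 0, as the median of all tested genes does, and 0 are past the adjusted threshold. That median is 0.121 with median centring, so nothing is read from the 29.

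Macrophage markers were found in both populations, and most of those found were higher in double positive cells, as notch2 was. Of 15 listed markers 12 were found at 19 identifiers, of which 11 rose and 1, IRF8, fell from single to double positive (limma, adjusted p under 0.05). Several of the 11 were copies of MFAP4. The scavenger receptor gene marco had 92.2, 6.9, 2.08 and 10.2 normalized counts in the single positive pools and 368, 513, 945 and 698 in the double positive pools. The complement gene c1qa averaged 28.4 ± 28.2 and 287 ± 41.6 (SD, n = 4 each). MFAP4 ENSDARG00000090783 averaged 35.1 ± 55.5 and 812 ± 426 (SD, n = 4 each), and reads that fit several MFAP4 copies make these identifiers uncertain. The populations did not overlap at 12 of the 19 identifiers, in each of which double positive cells were higher.

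The summed macrophage level ran from 8036 to 10998 normalized counts in single and from 9352 to 15246 in double positive libraries. It was led by cd74a, an antigen presentation gene that B lymphocytes also express, with 7552 ± 781 and 5559 ± 1273 (SD, n = 4 each). Without cd74a, which was lower on average in double positive cells (log2 difference -0.465, SE 0.17), the sums did not overlap. They were 1323 to 2999 in single and 4079 to 8123 in double positive libraries. Of the 19 identifiers, 15 differences lay above 0 and 4 below. The log2 difference was -1.23 (SE 0.47) for csf1rb, 0.253 (SE 0.26) for SPI1 and 0.531 (SE 0.30) for cd68, all with overlap. It was -0.422 (SE 0.30) for MPEG1 ENSDARG00000055290 and 4.33 (SE 0.65) for MPEG1 ENSDARG00000043093. The part of the shift in macrophage markers in the notch2 values was not tested.

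Of 13 B lymphocyte markers 8 were found and 5 fell from single to double positive (limma, adjusted p under 0.05), with summed levels of 468 to 1237 and 141 to 177. Most of each double positive sum was blnk, at 108.5, 107.7, 109.7 and 100.2. The populations overlapped for blnk, and it was not called (limma adjusted p = 0.371). PAX5, cd79a, ighm and cd37 were under 1 in every double positive library. On the other side of 0, cd22 averaged 2.03 ± 2.30 in single and 33.5 ± 16.4 in double positive cells (SD, n = 4 each), with no overlap and a limma adjusted p = 0.0706. The single positive B lymphocyte sums were 468, 539, 1237 and 497, beside NOTCH1 values of 152, 271, 117 and 172. The part of B lymphocytes in the NOTCH1 values was not tested. Of 13 T and NK markers 2 were found, of which nkl.4 fell, and of 8 neutrophil markers 4 were found, of which CSF3R rose (limma, adjusted p under 0.05). Neutrophil sums did not overlap, at 14.1 to 85 in single and 87.9 to 206 in double positive libraries. Most of each double positive sum was CSF3R, and the neutrophil markers mpx, lyz, npsn and cpa5 were not found.

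Of 15 endothelial and endocardial markers 8 were found and 0 were called (limma), with 1 above and 3 below 0 at an unadjusted p under 0.05. Of the 8 differences, 7 lay below 0 and 1, that of TIE1, above. Their median was -2.26, against -0.159 for all tested genes. With TIE1 counted in, the marker sums were 188 to 452 normalized counts in single and 92.7 to 220.4 in double positive libraries. The junction gene cdh5 had 89.6, 219, 52.3 and 53.5 normalized counts in the single positive pools and 1.75, 37.6, 38.4 and 5.36 in the double positive pools. Single positive library 2 was highest for cdh5, NOTCH1 and dll4 alike. Double positive libraries 2 and 4, the higher ones for cdh5, were also the higher ones for dll4, but for NOTCH1 the higher ones were 1 and 4. TIE1, the gene of the list with the highest mean count, averaged 37.8 ± 12.6 normalized counts in single and 93.4 ± 33.5 in double positive cells (SD, n = 4 each). The part of endothelial and endocardial cells in the receptor and ligand values was not tested. Of 13 epicardial and fibroblast markers 6 were found, at 7 identifiers, of which only wt1b rose (limma, adjusted p under 0.05). Double positive cells were sorted on the wt1b reporter, so that rise is no further result. The other 6 identifiers were not called. Sums over all 7 identifiers, wt1b included, were 664, 900, 115 and 169 in the single positive pools. In the double positive pools they were 139, 387, 1112 and 561. Double positive sums thus lay below the single positive ones in batch 1 and above them in batch 2.

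**Figure D4:**
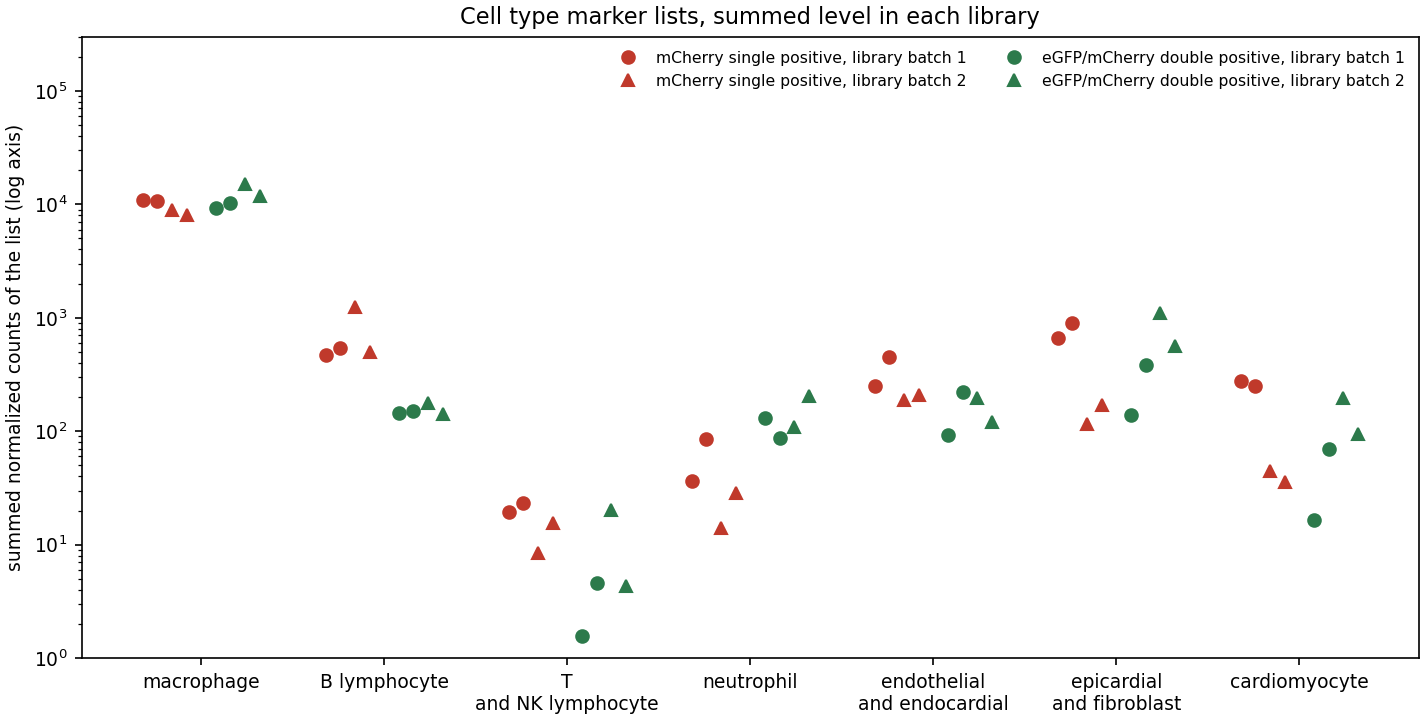
Summed normalized counts (log axis) of 7 cell type marker lists in each library, with single positive libraries in red, double positive libraries in green, circles for library batch 1 and triangles for batch 2. B lymphocyte sums (468 to 1237 against 141 to 177) and neutrophil sums (14.1 to 85 against 87.9 to 206) separate the populations. Most of each double positive neutrophil sum is CSF3R, and most of each double positive B lymphocyte sum is blnk. Endothelial sums overlap with TIE1 counted in, the only gene of that list with a difference above 0. Macrophage sums overlap with cd74a counted in.

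Genes were also ranked by Pearson correlation of log2(normalized count + 1) with each receptor over the 8 libraries, among 5115 other genes with a symbol and a mean of at least 10. The libraries form 2 populations, so r carries the difference by which the receptors were chosen, and it is given as a description. The genes most like notch2 were BIRC2 (r = 0.989), cxcr3.3 (0.971), ATP6V0C (0.970), ENTPD4 (0.969) and BTG1 (0.967). BIRC2, a ubiquitin ligase gene of the inhibitor of apoptosis family, had 574, 439, 539 and 681.5 normalized counts in single positive and 1143, 1054, 1539 and 1295 in the double positive pools. Like notch2, it was lowest in library 2 and highest in library 5 among single positive libraries, and highest in library 4 among double positive ones. The ranking picks genes for such likeness, so this order is no further result. The most opposed genes were the semaphorin receptor gene PLXNB1 (r = -0.950), the circadian repressor gene NR1D1 (-0.946) and the tetraspanin gene cd37 (-0.943).

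The genes most like NOTCH1 were the formin gene FMNL2 (r = 0.965), the nuclear receptor gene NR4A3 (0.962), the sphingomyelin synthase gene SGMS1 (0.958), STAT4 (0.953) and the phosphatase gene DUSP5 (0.946). NR4A3 had 993, 993, 534.5 and 756 normalized counts in single positive and 417, 243, 465 and 146 in the double positive pools. Its double positive libraries 1 and 4 lay above 2 and 5, as for NOTCH1, a likeness for which the ranking picked it. The most opposed genes were MBOAT2 (r = -0.952), HNRNPU (-0.938) and CYLD (-0.926).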

How the data were processed

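The deposited table holds 1 column per library of what the authors named normalized counts, a signal on a linear scale that is never 0. The submitters' processing notes name CASAVA 1.8.2, cutadapt and RSEM 1.2.3, and build Zv9. What each tool did, which annotation was used and how values were normalized is not stated, so read depth is unknown. Over genes, the mean log2 value of batch 1 minus that of batch 2 had its median at -0.00062 and an SD of 0.659. If the authors adjusted for batch, which no label states, the printed standard errors and p-values may be too small.

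Symbols came from a table of identifiers that matched 8512 of 10479 genes. A gene was tested if at least 4 of 8 libraries held it at 1 or more per 1000000 of their total. Values were taken to log2(value + 1), which understates changes of low genes. The fit used limma 3.58.1 (R 4.3.3), with library batch as covariate and a mean-variance trend, two-sided, with Benjamini-Hochberg adjustment over all 10127 genes. The fit was tested on simulated data without batch effects, which does not check it against the differences between these library batches. The 7 genes and the lists were chosen with earlier results of these data known. An item of the pathway list is not reported here and was left out of that list's counts and figure, which therefore do not cover the list as first drawn up. List entries were matched to symbols ignoring case, except DLD in capitals, which in human names an enzyme and was not taken as the ligand gene dld. Named pathway genes are those called or, in roles with 0 called, the one with the highest mean, and others are marked as chosen after their values were seen. Each library is a pool of hearts, so replicates were taken as biological. No gene named here shares identical values with another identifier.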

Additional observations from a re-analysis of the deposited data

Results flagged for a closer look

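Among 40 groups of 4 libraries looked at for the genes and ratios above, 4 held 1 library far from the other 3 by Dixon's ratio. For normally distributed values, chance alone would give about 1 in 20. Most of these groups hold counts on a linear scale, and groups share libraries, so the 4 are not read against that rate. RBPJ ENSDARG00000003398 was lowest in double positive library 1, at 15.6 normalized counts against 34.5 to 36.04 in the others. NOTCH3 was highest in double positive library 5, at 7.24 against 0.196 to 0.343. NRARP ENSDARG00000018958 was highest in single positive library 2, at 54.8 beside 17.7 to 21 elsewhere in that population. The log2 ratio of notch2 to NOTCH1 was lowest in single positive library 2, at 0.022 against 1.58 to 1.82.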

How the results depend on the processing

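All 7 genes kept the sign of their difference under each of 18 alternatives. Changes of filter, trend or covariate cannot alter a difference in this balanced design. For the 4 genes without overlap, only median centring and quantile normalization could have reversed the sign. Kept signs therefore say little for these 4. For notch2 the log2 difference ran from 1.18 to 1.62, and from 1.18 to 1.48 when 1 library was left out. For NOTCH1 it ran from -2.25 to -1.54, both ends with 1 library left out. Without double positive library 1 the median of all tested genes was 0.014, and median centring moved it from -0.159 to 0.121. The counts over all genes moved more. Higher genes numbered 124 without the trend and 0 in batch 1 alone (424 at an unadjusted p under 0.05), and 169 to 497 with 1 library left out. Lower genes numbered 0 in batch 1 alone (940 at an unadjusted p under 0.05), 152 in batch 2 alone and 101 to 308 with 1 library left out. Of the reported pathway genes, 0 rose under any of the 18 alternatives, and 0 to 2 fell with 1 library left out. The cause was not tested.

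Whether replicate numbers pair the libraries was not settled. Deviations of same-numbered libraries from their group means correlated at -0.292 to -0.112 over genes, and 0 of 8 libraries correlated best with their own number. Pairs of unlike number within a batch were negative too (-0.255 to -0.105), and pairs across batches were positive (0.0942 to 0.283). Batch deviations thus ran opposite ways in the populations, which the batch covariate does not model. The check therefore cannot tell pairing from batch. With the number as a replicate block the counts were 297 higher and 176 lower. The log2 differences of notch2 and NOTCH1 stayed at 1.34 and -1.86. They had to, since each number held 1 library of either population. Differences that changed sign were not called. NEURL1 was at -0.64 in batch 1 alone and from -0.242 to 0.632 with 1 library left out. DLK2 was at 0.229 with median centring, 0.279 with quantile normalization, 2.18 in batch 2 alone and from -0.837 to 1.24 with 1 library left out. HEY1 was at -0.574 in batch 1 alone. NCOR1 was at 0.104 with median centring, 0.477 in batch 1 alone and from -0.336 to 0.0376 with 1 library left out. NRARP ENSDARG00000091419 was at 0.806 in batch 2 alone and from -2.16 to 0.255 with 1 library left out.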
